A study of Mus musculus with 12 samples.

Results

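Fibroblast growth factor (FGF) signalling was described in sorted spinal cord glia through 10 genes, taken by name: the receptor genes Fgfr1, Fgfr2, Fgfr3 and Fgfrl1, the ligand genes Fgf1 and Fgf2, the feedback genes Spry1, Spry2 and Spry4, and the target gene Etv5. They are 10 of the 53465 genes counted in each library, and each was matched to a single Ensembl identifier. Cells came from the brachial and thoracic spinal cord of C57BL/6 mice at postnatal day 7, which all carried the Aldh1L1-GFP and Olig2-tdTomato reporters. Aldh1l1 encodes an astrocyte enzyme, and Olig2 a transcription factor found in oligodendrocyte-lineage cells and in ventral progenitors. Cells were dissociated with papain and sorted on a FACS Aria instrument into 3 fractions, labelled eGFP/tdTomato, eGFP and tdTomato, with 4 libraries each, numbered 1, 2, 3 and 5 and labelled as biological replicates. The labels call the libraries of one number a set and do not say what a set shares. Sort gates and the animals behind a library are not stated in the labels. The p-values therefore measure the spread between these libraries.

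FGF ligands bind receptor tyrosine kinases together with heparan sulfate, and the activated receptor recruits adaptors that switch on the Ras-MAPK cascade. The cascade induces transcription factors of the Pea3 family, among them Etv5, and also induces its own inhibitors, the Sprouty proteins and MAPK phosphatases. In the spinal cord, Fgfr3 is a classical marker of astrocytes and their precursors, and Fgfr2 is known as a receptor of maturing oligodendrocytes.

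Reads counted in genes were 23915784 to 30299452 per library in the eGFP/tdTomato fraction, 12564767 to 27898597 in the eGFP fraction and 25460920 to 36505583 in the tdTomato fraction. A library stood apart: eGFP library 1 had the fewest gene counts and 57.1% of its reads outside genes, against 21.2 to 42.5% in the others, and values that change without it are given with the gene. By fraction, the share outside genes was 25.6 to 42.5% in eGFP/tdTomato, 29.1 to 57.1% in eGFP and 21.2 to 31.5% in tdTomato libraries. The fractions were checked against their labels with summed levels of marker genes, in CPM (counts scaled by library size, here with TMM factors, which correct for RNA composition). The 10 astrocyte markers summed to 48900 ± 3140 CPM in eGFP/tdTomato libraries, 42600 ± 6570 CPM in eGFP libraries and 491 ± 83.1 CPM in tdTomato libraries (SD, n = 4 each). The 8 markers of myelinating oligodendrocytes summed to 2310 ± 816, 775 ± 397 and 128000 ± 23400 CPM in the same order of fractions, and no gene of the 9 marker lists was at 0 in a whole fraction. Ependymal markers summed to 17.5 CPM in eGFP/tdTomato libraries, 249 CPM in eGFP libraries and 3.01 CPM in tdTomato libraries. The mean sums of mural and fibroblast markers were 458, 1250 and 14.5 CPM, and those of microglia and macrophage markers 35.5, 392 and 30.0 CPM, in that order. Most of the 458 CPM was Col1a2, which averaged 408, 476 and 4.14 CPM, whereas Dcn averaged 4.44, 308 and 1.56 CPM. Of the 8 mural and fibroblast markers, 4 were lower and 0 higher in eGFP/tdTomato than in eGFP libraries (adjusted p under 0.05, edgeR). In such bulk samples, fewer cells of a type and less RNA per cell cannot be told apart.

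The members differed mainly between the fractions with eGFP and the tdTomato fraction. Genes were called at an adjusted p under 0.05 in edgeR's quasi-likelihood test over 29361 genes. Between eGFP/tdTomato and tdTomato libraries, 8 members were higher in eGFP/tdTomato libraries, where 16.8% of all genes tested were called higher, and Fgfr2 alone was lower, where 12.4% were (29.2% in either direction). Between eGFP and tdTomato libraries, 7 members were higher in eGFP libraries against a background of 20.4%, and Fgfr2 alone was lower against 14.9% (35.2% in either direction). Between eGFP/tdTomato and eGFP libraries, Fgf1 and Spry4 were higher in eGFP/tdTomato libraries and no member was lower (0 also at an unadjusted p under 0.05, in DESeq2 and in limma-voom), against backgrounds of 0.814% and 1.67% (2.49% in either direction). The median log2 fold change of the 10 members was 2.74, 1.74 and 0.53 in these comparisons, beside 0.70, 0.79 and -0.02 over all genes tested. All 10 members passed the filter on low counts. The comparisons share libraries, so their values are given side by side and not as independent evidence. Of the genes called, 57.6% were higher in eGFP/tdTomato than in tdTomato libraries, a share that fell to 41.4% among protein-coding genes alone, and 57.7% were higher in eGFP than in tdTomato libraries, with 44.5% among protein-coding genes alone.

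**Figure D1:**
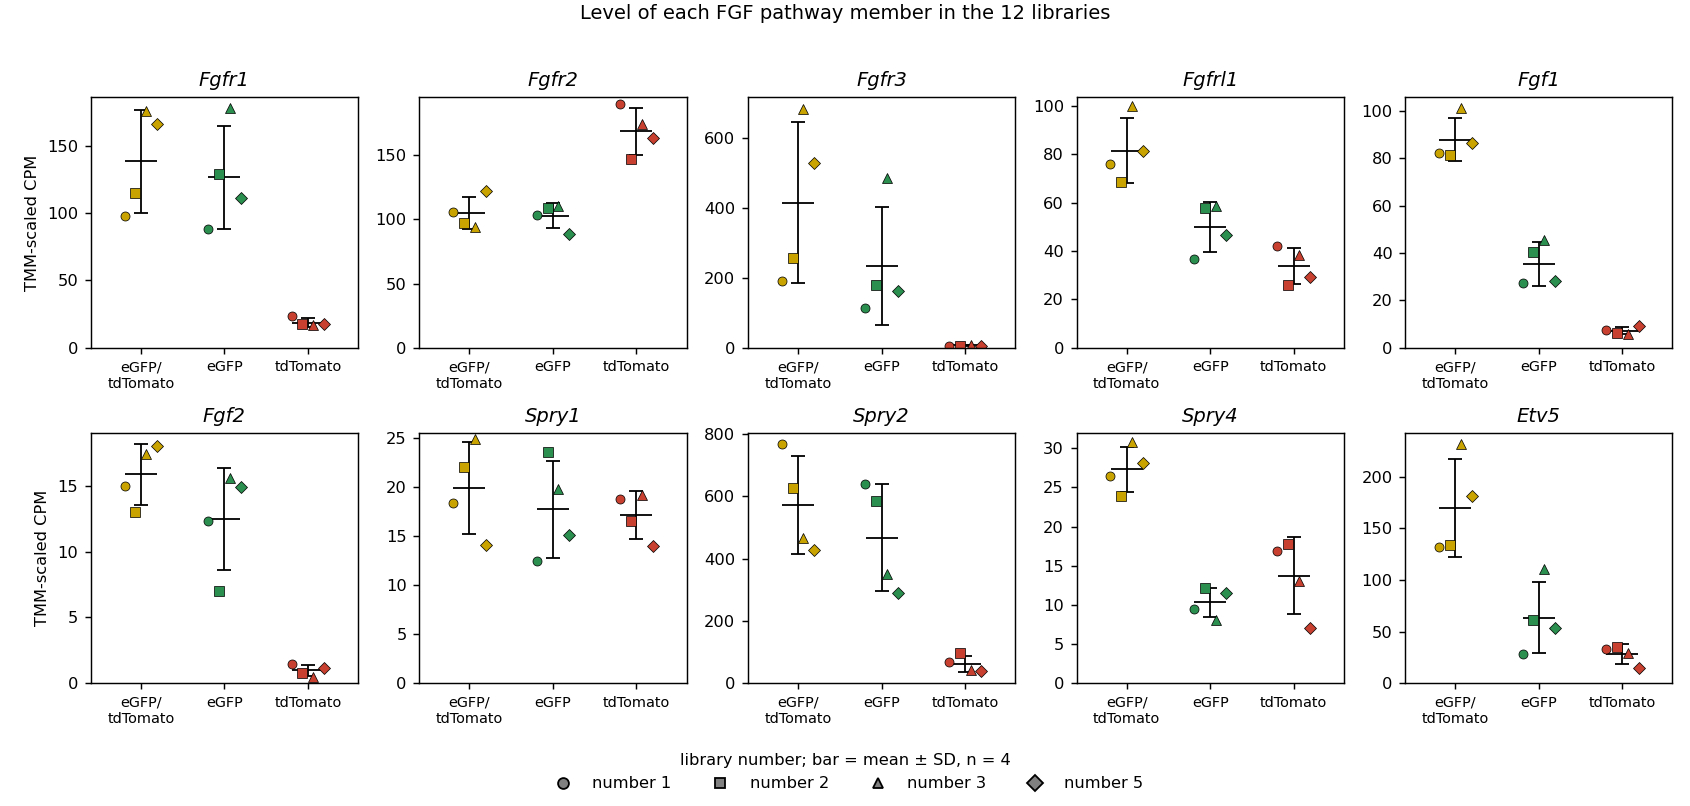
TMM-scaled CPM (linear axis from 0) of the 10 members in eGFP/tdTomato, eGFP and tdTomato libraries. Points are libraries with their number as the symbol, bars the mean ± SD of 4 libraries; Fgfr3 spans 192 to 684 CPM in eGFP/tdTomato libraries and 6.01 to 8.89 CPM in tdTomato libraries, whereas Fgfr2 is highest in the tdTomato libraries.

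Among the receptors, Fgfr3 separated the fractions by the widest fold. It had 192, 258, 684 and 529 CPM in eGFP/tdTomato libraries 1, 2, 3 and 5, 113, 179, 485 and 162 CPM in eGFP libraries, and 6.01, 6.47, 8.89 and 6.46 CPM in tdTomato libraries. Every library of the fractions with eGFP lay above every tdTomato library, while the eGFP/tdTomato and eGFP libraries overlapped. Fgfr3 was 59.7-fold higher in eGFP/tdTomato than in tdTomato libraries, with a log2 fold change of 5.90 ± 0.54 (SE; adjusted p = 4.04e-07, edgeR). It was 33.7-fold higher in eGFP than in tdTomato libraries (log2 fold change 5.08 ± 0.52, adjusted p = 1.27e-06, edgeR). Between eGFP/tdTomato and eGFP libraries the log2 fold change was 0.82 ± 0.43 and did not pass the test (adjusted p = 0.615, edgeR). Without eGFP library 3, the highest of its fraction, that change was 1.47 with an adjusted p of 0.0361 in edgeR. This was the only 1 of 25 alternatives that called it, and the change ranged from 0.42 to 1.47 over them. In GRCm38 Fgfr3 lies on the plus strand at chr5:33721674-33737068, and 13.9% of its exon bases overlap the antisense transcript G630022F23Rik, which averaged at most 0.355 CPM in a fraction.

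Fgfr1, a receptor kinase expressed widely in the nervous system, had 97.6, 115, 176 and 166 CPM in eGFP/tdTomato libraries, 88.2, 129, 178 and 111 CPM in eGFP libraries, and 23.3, 17.7, 16.8 and 17.4 CPM in tdTomato libraries. The fractions with eGFP overlapped almost fully, and both lay apart from the tdTomato fraction. Fgfr1 was 7.38-fold higher in eGFP/tdTomato than in tdTomato libraries (log2 fold change 2.88 ± 0.26, adjusted p = 3.24e-07, edgeR) and 6.75-fold higher in eGFP than in tdTomato libraries (2.75 ± 0.26, adjusted p = 4.68e-07, edgeR). Its log2 fold change between eGFP/tdTomato and eGFP libraries was 0.13 ± 0.24 (adjusted p = 1.00, edgeR), and the sign turned to -0.07 without eGFP library 1 and to -0.06 without eGFP/tdTomato library 3. Fgfr1 spans chr8:25513654-25575718 on the plus strand.

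Fgfr2 ran the other way. It had 106, 96.9, 94.0 and 122 CPM in eGFP/tdTomato libraries, 103, 109, 110 and 88.9 CPM in eGFP libraries, and 190, 147, 174 and 163 CPM in tdTomato libraries. All 4 tdTomato libraries lay above all 8 others. Fgfr2 was 1.61-fold lower in eGFP/tdTomato than in tdTomato libraries (log2 fold change -0.69 ± 0.16, adjusted p = 0.00306, edgeR) and 1.64-fold lower in eGFP than in tdTomato libraries (-0.71 ± 0.16, adjusted p = 0.00198, edgeR). These calls and their direction held in each of 25 alternative analyses. Between eGFP/tdTomato and eGFP libraries the log2 fold change was 0.03 ± 0.16 (adjusted p = 1.00, edgeR), and its sign depended on the analysis. GENCODE M21 gives Fgfr2 a span of chr7:130162451-133123350 on the minus strand, which reaches into Ctbp2; the genes share 3.04% of the exon bases of Fgfr2, and Ctbp2 averaged 38.0 CPM in eGFP/tdTomato libraries, 39.3 CPM in eGFP libraries and 11.6 CPM in tdTomato libraries.

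Fgfrl1 encodes a receptor that binds FGF but lacks the kinase domain. Its levels were 75.9, 68.6, 99.8 and 81.3 CPM in eGFP/tdTomato libraries, 36.8, 57.6, 58.4 and 46.6 CPM in eGFP libraries, and 41.9, 25.9, 38.5 and 29.1 CPM in tdTomato libraries. The eGFP/tdTomato libraries lay above all others, and the eGFP and tdTomato libraries overlapped. Fgfrl1 was 2.41-fold higher in eGFP/tdTomato than in tdTomato libraries (log2 fold change 1.27 ± 0.21, adjusted p = 0.000206, edgeR). Against eGFP libraries the log2 fold change in eGFP/tdTomato libraries was 0.71 ± 0.21 and did not pass (adjusted p = 0.108, edgeR), although DESeq2 (0.66, adjusted p = 0.0212), a floor of 1 CPM (0.63, adjusted p = 0.0470) and a term for reads outside genes (0.61, adjusted p = 0.0324) each called it. Between eGFP and tdTomato libraries it passed narrowly (0.56 ± 0.21, adjusted p = 0.0470, edgeR). That call was lost in 17 of 25 alternatives, whose adjusted p reached 0.459; single libraries whose removal ended it were numbers 1, 2, 3 and 5 of the eGFP fraction (log2 fold changes 0.51, 0.47, 0.46 and 0.39), numbers 1, 2, 3 and 5 of the eGFP/tdTomato fraction (0.55, 0.55, 0.32 and 0.55) and numbers 2, 3 and 5 of the tdTomato fraction (0.44, 0.62 and 0.48). Fgfrl1 lies at chr5:108692382-108706924 on the plus strand.

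To compare levels between the receptor genes, CPM were divided by the length of the merged exons. The kinase receptors Fgfr1 to Fgfr4 summed to 84.2 ± 36.5 CPM per kb in eGFP/tdTomato libraries, 57.1 ± 28.1 CPM per kb in eGFP libraries and 19.4 ± 1.98 CPM per kb in tdTomato libraries (SD, n = 4 each). Fgfr3 held 65.9% of that sum in eGFP/tdTomato libraries (range 55.8 to 76.5%), 53.5% in eGFP libraries (43.1 to 68.8%) and 5.05% in tdTomato libraries (3.87 to 6.22%). Fgfr2 held 14.0% in eGFP/tdTomato libraries, 19.7% in eGFP libraries and 84.2% in tdTomato libraries, where it ranged only from 83.3 to 84.7%. Fgfr1 held 17.7%, 23.7% and 9.83% in that order. Among the kinase receptors, Fgfr3 thus led in every library of the fractions with eGFP, and Fgfr2 in every tdTomato library. Fgfrl1, which has no kinase domain, stood at 27.3 CPM per kb in eGFP/tdTomato library 1, beside 26.8 CPM per kb for Fgfr3, and below Fgfr3 in the other libraries with eGFP. With the length of the longest transcript in place of merged exons, the share of Fgfr3 was 50.4 to 73.3% in eGFP/tdTomato libraries and 38.4 to 64.6% in eGFP libraries, and that of Fgfr2 was 86.4 to 87.6% in tdTomato libraries.

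**Figure D2:**
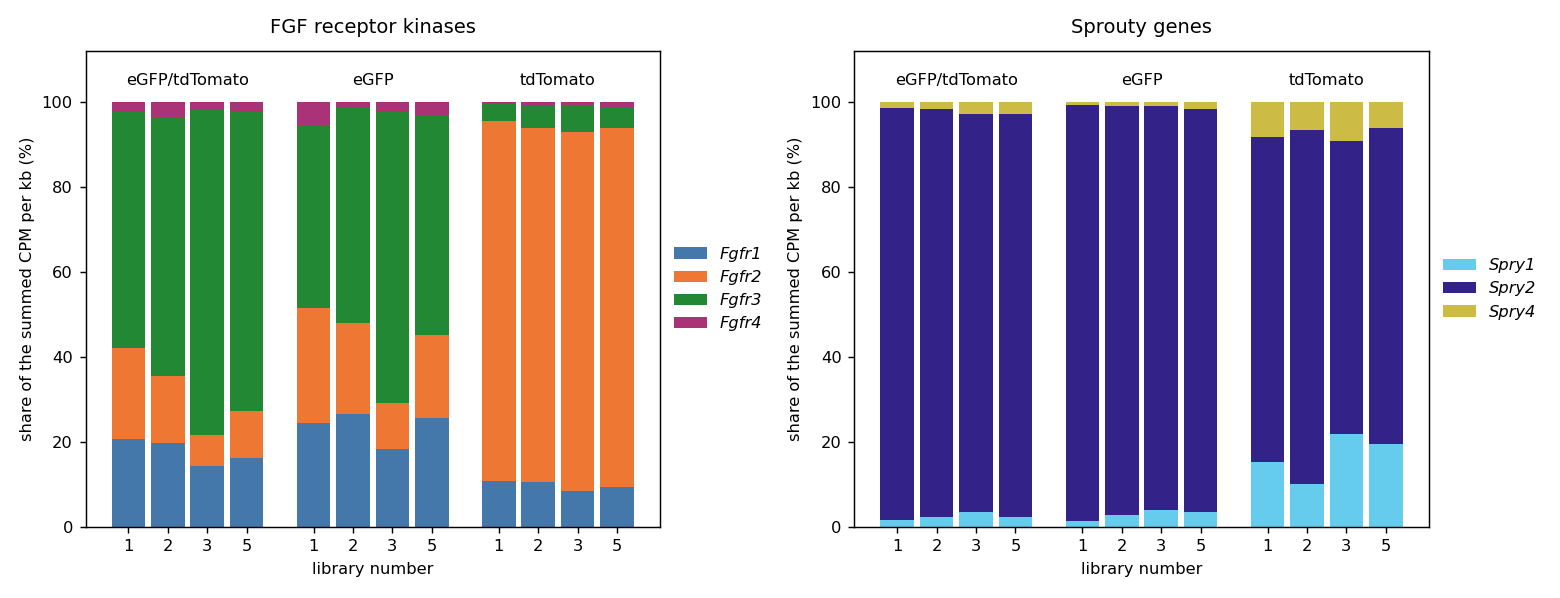
Shares of the kinase receptor genes (left) and Sprouty genes (right) in the summed CPM per kb of each family, in percent, for each library of the eGFP/tdTomato, eGFP and tdTomato fractions. Fgfr2 holds 83.3 to 84.7% of the receptor sum in tdTomato libraries; Spry2 holds most of the Sprouty sum in every library.

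The stretches of 250 bases before the start site are shown for Fgfr2, Fgfr3, Fgfrl1, Spry2 and Etv5. Fgfr2, higher in tdTomato libraries, can so be set beside genes that were lower there. They were read 5′ to 3′ on the strand of the gene from RefSeq annotation of GRCm38.p6, which held 7 of the 10 members. No entry was matched to Fgfr1, Fgf1 or Spry4. Capitals mark CG pairs, the sites of vertebrate DNA methylation, which gather in CpG islands.

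Fgfr2, chr7:130266809-130267058, minus strand: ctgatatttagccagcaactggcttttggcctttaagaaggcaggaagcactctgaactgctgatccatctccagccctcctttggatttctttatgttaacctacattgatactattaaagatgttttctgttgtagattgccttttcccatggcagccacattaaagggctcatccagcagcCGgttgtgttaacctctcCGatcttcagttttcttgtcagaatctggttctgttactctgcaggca

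Fgfr3, chr5:33721474-33721723, plus strand: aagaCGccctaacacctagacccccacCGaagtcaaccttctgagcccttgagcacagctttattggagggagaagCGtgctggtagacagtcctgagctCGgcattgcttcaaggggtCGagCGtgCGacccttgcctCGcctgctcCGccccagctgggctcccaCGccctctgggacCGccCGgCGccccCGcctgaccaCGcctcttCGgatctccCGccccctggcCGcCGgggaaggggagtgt

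Fgfrl1, chr5:108693979-108694228, plus strand: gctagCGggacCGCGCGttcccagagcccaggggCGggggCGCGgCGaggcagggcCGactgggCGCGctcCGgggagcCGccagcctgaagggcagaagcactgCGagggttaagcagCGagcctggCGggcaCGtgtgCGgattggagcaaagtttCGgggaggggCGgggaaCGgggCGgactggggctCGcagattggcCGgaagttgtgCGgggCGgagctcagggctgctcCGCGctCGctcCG

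Spry2, chr14:105896820-105897069, minus strand: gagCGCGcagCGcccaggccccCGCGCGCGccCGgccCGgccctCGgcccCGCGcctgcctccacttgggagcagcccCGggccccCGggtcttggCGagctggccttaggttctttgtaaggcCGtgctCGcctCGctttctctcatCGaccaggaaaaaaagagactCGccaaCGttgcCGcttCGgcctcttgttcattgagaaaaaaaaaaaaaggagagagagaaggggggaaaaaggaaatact

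Etv5, chr16:22439571-22439820, minus strand: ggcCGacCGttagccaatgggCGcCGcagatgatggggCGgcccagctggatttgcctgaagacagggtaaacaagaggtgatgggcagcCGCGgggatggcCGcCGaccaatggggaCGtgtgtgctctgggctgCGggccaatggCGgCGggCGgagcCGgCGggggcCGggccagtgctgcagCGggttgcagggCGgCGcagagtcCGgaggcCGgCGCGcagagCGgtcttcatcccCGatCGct

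The Fgfr2 stretch held 2 CG pairs and 44.0% G or C, and the Fgfr3 stretch 19 CG pairs and 66.8%. Spry2 had 23 CG pairs, Etv5 27 and Fgfrl1 30. Over 32536 distinct RefSeq promoter stretches of this length the median was 6 CG pairs and 52.4% G or C; 28.8% held as few CG pairs as Fgfr2, and 19.9% held as many as Fgfr3. Both strands were searched for 4 short motifs: the ETS motif CCGGAA, the PEA3 motif AGGAAG, the SOX motif ACAATG and the NFI motif TTGGCA. The Fgfr2 stretch held AGGAAG 208 bases before the start, and the Fgfrl1 stretch CCGGAA 48 bases before the start. No other match was found in the stretches of the 7 members. Fgfr3 and Etv5 each had a further start site, whose stretches held 24 and 18 CG pairs. Of the members not shown, Fgf2 had 20 CG pairs, and Spry1, which was called in no comparison, had 23. These letters occur in 29.6% (AGGAAG), 12.1% (CCGGAA), 10.5% (ACAATG) and 12.3% (TTGGCA) of all stretches. The RefSeq start of Fgfr2 lies 2856542 bases from the end of the GENCODE gene, whose span reaches into Ctbp2. That of Fgfrl1 lies 1847 bases from its GENCODE start.

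Both ligand members had their highest mean in eGFP/tdTomato libraries and were higher in the fractions with eGFP than in tdTomato libraries. Fgf1 encodes acidic FGF, a ligand of all FGF receptors that lacks a classical secretion signal. It had 82.4, 81.5, 101 and 86.6 CPM in eGFP/tdTomato libraries, 27.3, 40.3, 45.7 and 28.1 CPM in eGFP libraries, and 7.48, 6.32, 5.80 and 9.11 CPM in tdTomato libraries. The 3 fractions did not overlap. Fgf1 was 2.49-fold higher in eGFP/tdTomato than in eGFP libraries (log2 fold change 1.31 ± 0.21, adjusted p = 0.00210, edgeR) and 12.2-fold higher than in tdTomato libraries (3.61 ± 0.23, adjusted p = 8.26e-09, edgeR). It was 4.92-fold higher in eGFP than in tdTomato libraries (2.30 ± 0.22, adjusted p = 5.44e-07, edgeR). All of these calls held in 25 of 25 alternatives, and the change against eGFP libraries stayed between 1.15 and 1.48.

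Fgf2, basic FGF, was the lowest of the members per length in every fraction. It had 15, 13, 17.4 and 18 CPM in eGFP/tdTomato libraries, 12.3, 7.02, 15.6 and 14.9 CPM in eGFP libraries, and 1.47, 0.782, 0.483 and 1.14 CPM in tdTomato libraries, where 13 to 33 reads stood behind each value. The fractions with eGFP overlapped, and both lay above the tdTomato fraction. Fgf2 was 16.4-fold higher in eGFP/tdTomato than in tdTomato libraries (log2 fold change 4.03 ± 0.35, adjusted p = 2.90e-07, edgeR) and 12.9-fold higher in eGFP than in tdTomato libraries (3.69 ± 0.35, adjusted p = 6.28e-07, edgeR). Between eGFP/tdTomato and eGFP libraries its log2 fold change was 0.35 ± 0.30 (adjusted p = 0.965, edgeR). Of the exon bases of Fgf2, which lies at chr3:37348346-37410108, 13.2% overlap other genes, chiefly the antisense gene Nudt6, which averaged 1.34 to 2.23 CPM. The strand mode of the counting is not given in the sources used here, so reads from those bases cannot be told apart.

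The Sprouty genes, whose products restrain the Ras-MAPK cascade, showed a different pattern for each gene. Per length of merged exons, Spry2 had the highest mean of the members in every fraction, though in tdTomato libraries its range overlapped that of Fgfr2. Its CPM were 768, 627, 466 and 429 CPM in eGFP/tdTomato libraries, 639, 586, 350 and 291 CPM in eGFP libraries, and 68.0, 97.6, 43.5 and 38.2 CPM in tdTomato libraries. The fractions with eGFP overlapped and stood above all tdTomato libraries. Spry2 was 9.25-fold higher in eGFP/tdTomato than in tdTomato libraries (log2 fold change 3.21 ± 0.35, adjusted p = 2.92e-06, edgeR) and 7.54-fold higher in eGFP than in tdTomato libraries (2.91 ± 0.34, adjusted p = 6.55e-06, edgeR). Its change between eGFP/tdTomato and eGFP libraries was 0.30 ± 0.32 (adjusted p = 1.00, edgeR). Per length, Spry2 made up 95.4% of the Sprouty sum in eGFP/tdTomato libraries, 96.1% in eGFP libraries and 75.8% in tdTomato libraries. Spry2 spans chr14:105891947-105896819 on the minus strand.

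Spry4 set the eGFP/tdTomato fraction apart from both others. It had 26.4, 23.9, 30.8 and 28.1 CPM in eGFP/tdTomato libraries, 9.53, 12.1, 8.13 and 11.5 CPM in eGFP libraries, and 16.9, 17.8, 13.1 and 7.01 CPM in tdTomato libraries. The eGFP/tdTomato libraries lay above all others, while the eGFP and tdTomato libraries overlapped. Spry4 was 2.65-fold higher in eGFP/tdTomato than in eGFP libraries (log2 fold change 1.41 ± 0.26, adjusted p = 0.00632, edgeR) and 1.99-fold higher than in tdTomato libraries (0.99 ± 0.26, adjusted p = 0.00755, edgeR). The call against eGFP libraries was lost without the libraries numbered 1 of all fractions (1.39, adjusted p = 0.0525) or those numbered 3 (1.19, adjusted p = 0.0681). The call against tdTomato libraries was lost without eGFP/tdTomato library 3 (0.63, adjusted p = 0.136), without eGFP library 5 (0.75, adjusted p = 0.0576) and without the libraries numbered 3 (0.56, adjusted p = 0.214). Between eGFP and tdTomato libraries the change of Spry4 was -0.41 ± 0.26 (adjusted p = 0.213, edgeR), and it was -0.65 with an adjusted p of 0.0256 without tdTomato library 5. Spry4 lies at chr18:38586247-38601415 and Fgf1 at chr18:38838673-38929472, both on the minus strand.

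Spry1 passed no test. It had 18.4, 22, 24.9 and 14.1 CPM in eGFP/tdTomato libraries, 12.4, 23.5, 19.8 and 15.1 CPM in eGFP libraries, and 18.8, 16.5, 19.2 and 14.0 CPM in tdTomato libraries, which overlapped throughout. The log2 fold changes were 0.16 ± 0.23 between eGFP/tdTomato and eGFP libraries, 0.22 ± 0.23 between eGFP/tdTomato and tdTomato libraries and 0.05 ± 0.23 between eGFP and tdTomato libraries, with adjusted p of 1.00, 0.489 and 0.867 in edgeR. Their sign depended on the analysis. Spry1 lies at chr3:37639947-37644598, and 24.4% of its exon bases overlap the antisense transcript Gm42922, which averaged at most 0.490 CPM.

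Etv5, a Pea3-family transcription factor that FGF signalling induces, had 132, 134, 232 and 181 CPM in eGFP/tdTomato libraries, 28.4, 61.4, 111 and 53.2 CPM in eGFP libraries, and 33.5, 35.4, 29.4 and 14.6 CPM in tdTomato libraries. The eGFP/tdTomato libraries lay above all others, and the eGFP and tdTomato libraries overlapped. Etv5 was 6.02-fold higher in eGFP/tdTomato than in tdTomato libraries (log2 fold change 2.59 ± 0.38, adjusted p = 6.17e-05, edgeR). Its change between eGFP/tdTomato and eGFP libraries, 1.42 ± 0.36, fell just short of the threshold (adjusted p = 0.0533, edgeR). That change ranged from 1.12 to 1.84 over 25 alternatives, of which 11 called it. Among these were DESeq2 (1.38, adjusted p = 0.00173) and edgeR with a replicate block (1.51, adjusted p = 0.00808). The analyses without eGFP library 3 (1.84, adjusted p = 0.00524) and without tdTomato library 5 (1.42, adjusted p = 0.0325) also called it. In eGFP libraries Etv5 was higher than in tdTomato libraries (1.17 ± 0.36, adjusted p = 0.0195, edgeR). That call was lost in 7 of 25 alternatives, namely without eGFP library 3 (0.74, adjusted p = 0.0772), eGFP library 5 (1.05, adjusted p = 0.0676), eGFP/tdTomato library 3 (0.93, adjusted p = 0.0575) or tdTomato library 5 (0.94, adjusted p = 0.0507), and without the libraries numbered 2 (1.31), 3 (0.50) or 5 (1.03). Etv5 spans chr16:22381309-22439719 on the minus strand.

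**Figure D3:**
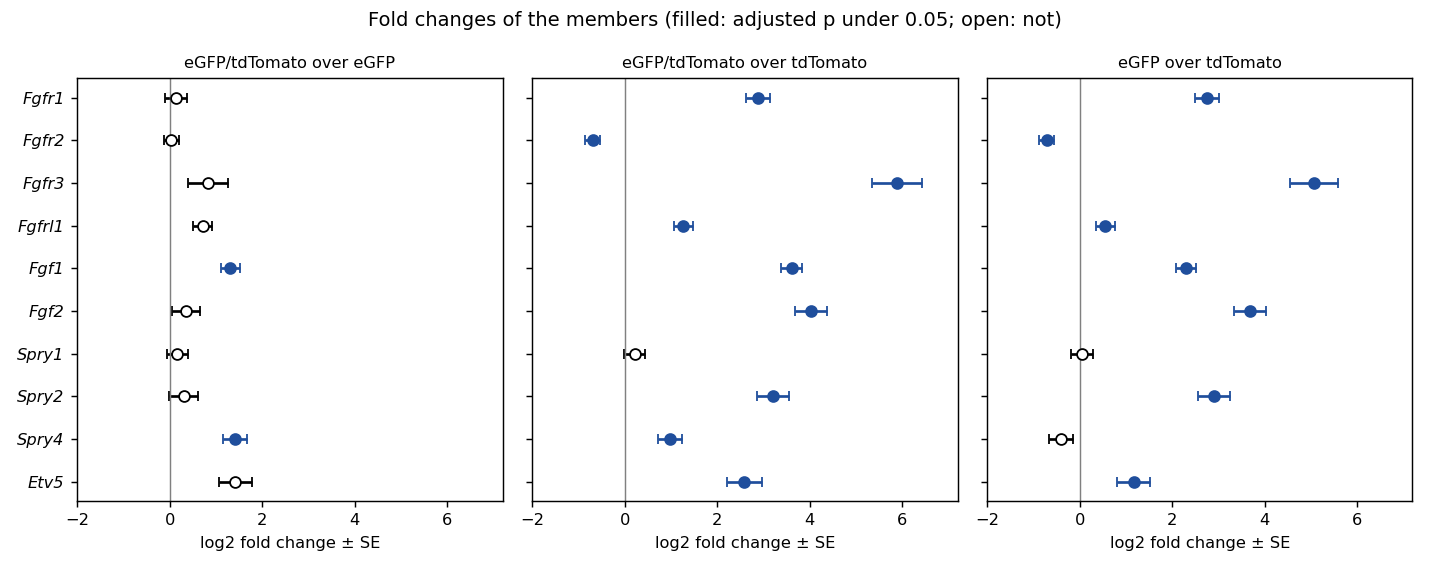
Log2 fold change ± SE from edgeR for each member, for eGFP/tdTomato over eGFP, eGFP/tdTomato over tdTomato and eGFP over tdTomato libraries (n = 4 per fraction). Filled points have an adjusted p under 0.05; Fgf1 and Spry4 are filled in the first panel, and Fgfr2 is the member below 0 among the filled points of the other panels.

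Markers of other cells were set beside these differences. In tdTomato libraries the 10 astrocyte markers stood at 0.144 to 5.42% of their level in eGFP/tdTomato libraries. Fgfr3 stood at 1.67%, inside that range, and Fgf2 at 6.13%, Fgf1 at 8.17%, Spry2 at 10.8%, Fgfr1 at 13.5% and Etv5 at 16.6%, all above it. In the other direction, the 8 markers of myelinating oligodendrocytes stood in eGFP/tdTomato libraries at 1.09 to 4.98% of their tdTomato level, and Fgfr2 at 62.1%. Markers of oligodendrocyte progenitors summed to 818 CPM in eGFP/tdTomato libraries, 282 CPM in eGFP libraries and 3330 CPM in tdTomato libraries. Most of the eGFP/tdTomato sum was Olig1, which averaged 661, 182 and 1040 CPM in that order. Pdgfra averaged 7.8, 13.2 and 208 CPM, and Cspg4 12.7, 7.0 and 61.8 CPM. Of these 8 markers, 3 were called higher (Olig1, Sox10 and Gpr17) and 0 lower in eGFP/tdTomato than in eGFP libraries. Sox10 averaged 13.9 and 1.65 CPM in these fractions, and Gpr17 26.7 and 2.09 CPM. Whether progenitors or the ependymal, mural and microglial RNA of the eGFP fraction took part in the differences of Fgf1, Spry4 and Etv5 was not tested.

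Per length of merged exons, Spry2 led in eGFP/tdTomato libraries with 274 ± 75.0 CPM per kb, apart from the range of Fgfr3 (58.1 ± 32.2 CPM per kb). The ranges of Fgfr3, Etv5 (41.4) and Fgfrl1 (29.3) overlapped with their neighbours in this order, followed by a group of Fgf1 (16.1), Fgfr1 (14.1) and Fgfr2 (10.1), then Spry1 (6.83) with Spry4 (5.74), and Fgf2 at 2.33 CPM per kb. In eGFP libraries Spry2 again led with 223 ± 82.3 CPM per kb; Fgfr3 (32.8), Fgfrl1 (17.9), Etv5 (15.5), Fgfr1 (12.8) and Fgfr2 (9.95) each overlapped the next, as did Fgf1 (6.47) and Spry1 (6.09), and Spry4 (2.17) and Fgf2 (1.83 CPM per kb). In tdTomato libraries Spry2 (29.6), Fgfr2 (16.3) and Fgfrl1 (12.2 CPM per kb) formed the top of the order with overlapping neighbours. Etv5 (6.88) and Spry1 (5.88) came next, then Spry4 (2.89) with Fgfr1 (1.90), Fgf1 (1.31) with Fgfr3 (0.972), and Fgf2 at 0.143 CPM per kb. Fgfr3 was the second of the members in eGFP/tdTomato and eGFP libraries and the ninth in tdTomato libraries, where Fgfr2 was the second.

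Parts of this order turned with the length of the longest transcript, which for Fgfr2 is 4429 bases against 10328 bases of merged exons. In tdTomato libraries Fgfr2 (38.1 CPM per kb, range 33.1 to 42.9) then stood above Spry2 (29.6, range 18.3 to 46.8), and Fgfr1 (3.73) above Spry4 (2.89). In eGFP libraries Fgfr1 (25.2) and Fgfr2 (23.2) then stood above Fgfrl1 (21.4) and Etv5 (16.0 CPM per kb), with overlapping ranges. In eGFP/tdTomato libraries Fgf1 (22.1 CPM per kb) then stood below Fgfr1 (27.5) and Fgfr2 (23.6). Spry2 and Fgfr3 stayed first and second in the fractions with eGFP, Fgfr3 ninth in tdTomato libraries and Fgf2 last in each fraction.

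The other genes of the pathway were taken as 78 genes in 7 lists, of which 73 passed the filter on low counts. In eGFP/tdTomato against tdTomato libraries 21 were called higher and 13 lower, in eGFP against tdTomato libraries 24 higher and 14 lower, and in eGFP/tdTomato against eGFP libraries 1 higher and 2 lower. These were 28.8% and 17.8%, 32.9% and 19.2%, and 1.37% and 2.74% of the 73 genes, beside 16.8% and 12.4%, 20.4% and 14.9%, and 0.814% and 1.67% of all genes tested. Among protein-coding genes alone, 4715 and 5015 of 18851 were called lower in eGFP/tdTomato and in eGFP than in tdTomato libraries. The median log2 fold changes of the 73 genes were 0.36, 0.41 and 0.15, beside 0.70, 0.79 and -0.02 over all genes tested. That background depended on the genes kept. It was 0.12, 0.18 and -0.05 with a floor of 1 CPM in 4 libraries, and 0.24, 0.34 and -0.05 among protein-coding genes alone.

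Of 7 other feedback inhibitors that passed the filter, 4 were higher in eGFP/tdTomato and in eGFP libraries than in tdTomato libraries (list medians 2.54 and 2.00), and none was lower. The share called higher, 57.1% in both, stands beside 16.8% and 20.4% of all genes tested. Spry2 was also higher in both comparisons. None of the 7 was called between eGFP/tdTomato and eGFP libraries in edgeR, where 3 had an unadjusted p under 0.05. DESeq2 and limma-voom called 0 of them, and some other alternatives 1. Dusp6, a phosphatase that switches off ERK, had 71.7, 69.7, 87.4 and 77.6 CPM in eGFP/tdTomato libraries, 30.7, 55.5, 53.4 and 52.3 CPM in eGFP libraries, and 9.67, 14.8, 9.45 and 5.76 CPM in tdTomato libraries. The 3 fractions did not overlap, and the log2 fold changes against tdTomato libraries were 2.95 ± 0.27 in eGFP/tdTomato libraries (adjusted p = 5.08e-07, edgeR) and 2.27 ± 0.27 in eGFP libraries (adjusted p = 6.09e-06, edgeR). Il17rd, which encodes the transmembrane FGF inhibitor Sef, averaged 45.0 ± 12, 35.1 ± 9.67 and 2.23 ± 1.02 CPM in eGFP/tdTomato, eGFP and tdTomato libraries and was 20.1-fold higher in eGFP/tdTomato than in tdTomato libraries (adjusted p = 1.53e-07, edgeR). Spred2, a Sprouty-related inhibitor, averaged 17.2, 11.9 and 2.97 CPM in the same order. Dusp5, a nuclear ERK phosphatase, averaged 5.06, 5.08 and 0.824 CPM, and its call in eGFP against tdTomato libraries (2.61 ± 0.70) was lost without eGFP library 1 (1.84, adjusted p = 0.0549), without the libraries numbered 1 (2.06, adjusted p = 0.0807), with a term for reads outside genes (1.48, adjusted p = 0.133) and in limma-voom (2.51, adjusted p = 0.0503). Its call in eGFP/tdTomato against tdTomato libraries was lost without the libraries numbered 1 (2.36, adjusted p = 0.0530) or 5 (2.50, adjusted p = 0.0570). Spry3 had no count in any library.

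Of the other Pea3-family factors, Etv4 was called in the comparisons in which Etv5 was. It had 88.0, 86.7, 193 and 136 CPM in eGFP/tdTomato libraries, 20.2, 32.7, 97.7 and 28.8 CPM in eGFP libraries, and 11.7, 7.61, 11.5 and 5.20 CPM in tdTomato libraries. Etv4 was 14.0-fold higher in eGFP/tdTomato than in tdTomato libraries (log2 fold change 3.81 ± 0.48, adjusted p = 1.50e-05, edgeR) and 5.00-fold higher in eGFP than in tdTomato libraries (2.32 ± 0.46, adjusted p = 0.000836, edgeR). Between eGFP/tdTomato and eGFP libraries its change of 1.49 ± 0.44 did not pass (adjusted p = 0.110, edgeR), with eGFP library 3 reaching into the eGFP/tdTomato range; without that library it was 2.22 (adjusted p = 0.00141). Of 25 alternatives 7 called it, among them DESeq2 (1.46, adjusted p = 0.00777), limma-voom (1.66, adjusted p = 0.0199) and edgeR with a replicate block (1.65, adjusted p = 0.00387). Etv1 averaged 41.6, 26.6 and 35.3 CPM in eGFP/tdTomato, eGFP and tdTomato libraries and passed no test in edgeR. Its change between eGFP/tdTomato and eGFP libraries was 0.65 ± 0.20 (adjusted p = 0.138, edgeR), without overlap of the libraries. For that change of Etv1, 2 of 25 alternatives called it, DESeq2 (0.60, adjusted p = 0.0435) and edgeR with a replicate block (0.67, adjusted p = 0.0396). Between eGFP and tdTomato libraries the change of Etv1 was -0.41 ± 0.20 (adjusted p = 0.124, edgeR), and 5 alternatives called it, among them DESeq2 (-0.48, adjusted p = 0.0454) and the analysis without eGFP/tdTomato library 3 (-0.66, adjusted p = 0.0389).

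The genes of the adaptors and the Ras-MAPK cascade that were called against tdTomato libraries were lower in the fractions with eGFP, and 11 and 10 of the 18 genes were not called. Of the 18, none was higher in edgeR (1 at an unadjusted p under 0.05) and 7 were lower in eGFP/tdTomato than in tdTomato libraries, and none was higher (0 at an unadjusted p under 0.05) and 8 were lower in eGFP than in tdTomato libraries, with list medians of -0.48 and -0.66. The shares called lower, 38.9% and 44.4%, stand beside 12.4% and 14.9% of all genes tested. Among protein-coding genes alone the background was larger, with 4715 and 5015 of 18851 genes called lower. DESeq2 and limma-voom called none higher; all alternatives called 0 to 2 of them higher and 5 to 10 lower in eGFP/tdTomato libraries, and 0 or 1 higher and 6 to 11 lower in eGFP libraries. Mapk3, which encodes ERK1, had 20.3, 25.7, 41.8 and 31.7 CPM in eGFP/tdTomato libraries, 22.5, 20.6, 38.5 and 24.2 CPM in eGFP libraries, and 288, 208, 343 and 238 CPM in tdTomato libraries. It was 9.02-fold lower in eGFP/tdTomato than in tdTomato libraries (log2 fold change -3.17 ± 0.27, adjusted p = 2.36e-07, edgeR) and 10.2-fold lower in eGFP than in tdTomato libraries (-3.35 ± 0.28, adjusted p = 1.34e-07, edgeR). The docking protein gene Gab1 averaged 62.5 ± 5.01, 62.1 ± 15.7 and 233 ± 40.3 CPM in eGFP/tdTomato, eGFP and tdTomato libraries. Ptpn11, which encodes the phosphatase SHP2, averaged 72.6 ± 9.0, 59.4 ± 16.7 and 220 ± 68.1 CPM. The adaptor gene Grb2 was 2.11-fold lower in eGFP/tdTomato than in tdTomato libraries (-1.08 ± 0.19, adjusted p = 0.000327, edgeR), and Nras was 2.23-fold lower in eGFP than in tdTomato libraries (-1.16 ± 0.21, adjusted p = 0.000419, edgeR).

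**Figure D4:**
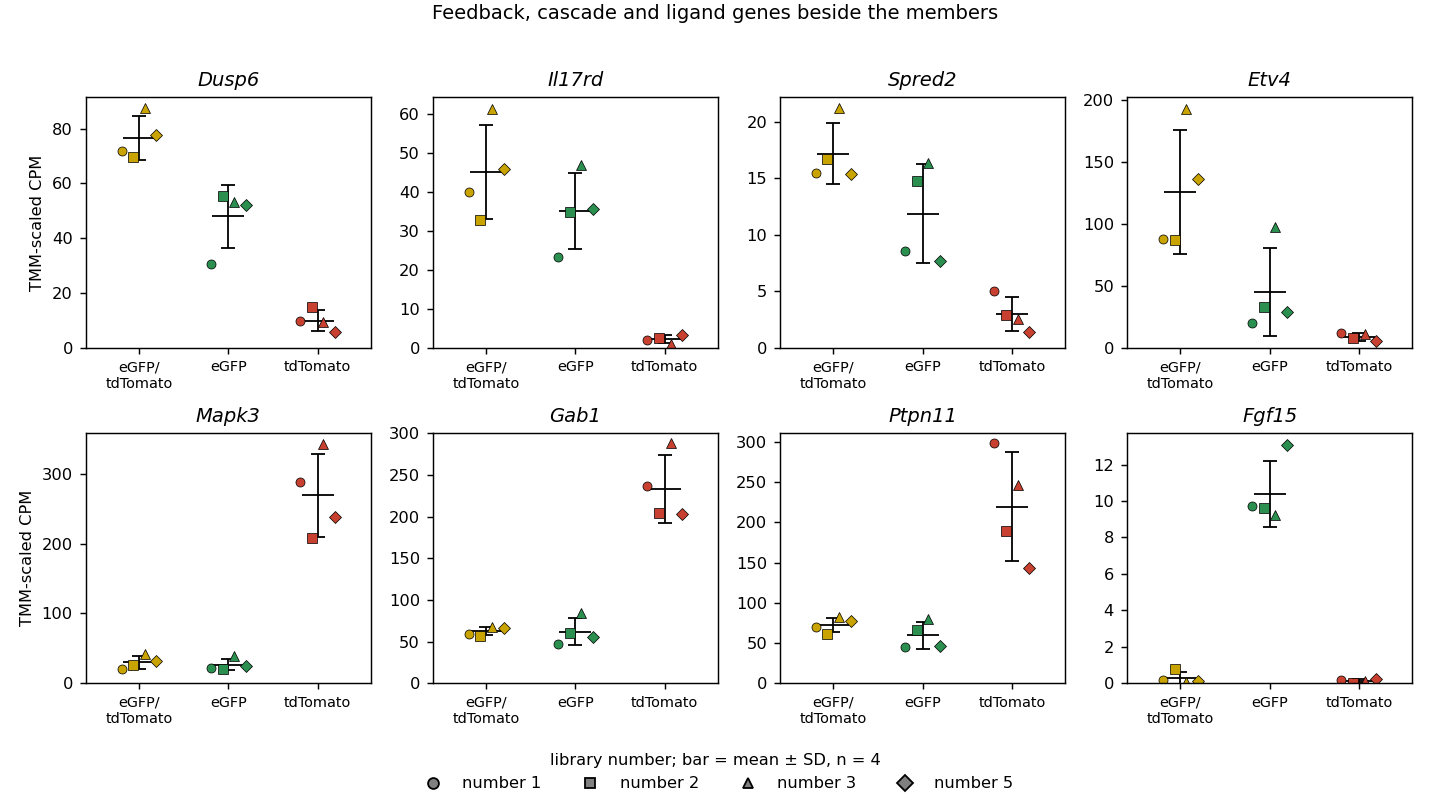
TMM-scaled CPM of feedback genes (Dusp6, Il17rd, Spred2), the factor Etv4, cascade genes (Mapk3, Gab1, Ptpn11) and the ligand Fgf15 in eGFP/tdTomato, eGFP and tdTomato libraries, with symbols for the library number and bars for the mean ± SD of 4 libraries. Mapk3 averages 29.9, 26.4 and 269 CPM in these fractions, and Fgf15 is near 0 except in eGFP libraries.

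Most other secreted ligands were scarce: 12 of 16 passed the filter. Between the fractions with eGFP, edgeR called 1 secreted ligand, Fgf15. It had 0.205, 0.758, 0.0753 and 0.148 CPM in eGFP/tdTomato libraries, 9.70, 9.60, 9.22 and 13.1 CPM in eGFP libraries, and at most 0.221 CPM in tdTomato libraries. Its log2 fold change was -5.13 ± 0.69 in eGFP/tdTomato against eGFP libraries (adjusted p = 0.000595, edgeR) and 6.25 ± 0.75 in eGFP against tdTomato libraries (adjusted p = 7.88e-06, edgeR). All 8 ependymal markers were also lower in eGFP/tdTomato than in eGFP libraries. Foxj1 averaged 5.19, 28.4 and 0.71 CPM in eGFP/tdTomato, eGFP and tdTomato libraries, and Pifo 0.586, 33.4 and 0.0369 CPM. The sums of microglia and macrophage markers (35.5, 392 and 30.0 CPM) and of mural and fibroblast markers (458, 1250 and 14.5 CPM) were likewise highest in eGFP libraries. The part of these cells in the Fgf15 difference was not tested. Fgf10, a ligand of the epithelial splice form of FGFR2, was 10.2-fold higher in eGFP than in tdTomato libraries (6.96 ± 3.10 and 0.671 ± 0.362 CPM, adjusted p = 3.29e-05, edgeR). It had 2.39 to 3.24 CPM in eGFP/tdTomato libraries and 3.83 to 11.2 CPM in eGFP libraries, which did not overlap; that change of -1.36 ± 0.42 did not pass in edgeR (adjusted p = 0.139) and passed in DESeq2 (-1.41, adjusted p = 0.0187). Fgf7, which binds the same form, ran against it with 1.76 ± 0.590, 1.98 ± 2.20 and 11.2 ± 2.10 CPM in eGFP/tdTomato, eGFP and tdTomato libraries, and was 6.35-fold lower in eGFP/tdTomato than in tdTomato libraries (adjusted p = 0.00437, edgeR). Its difference between eGFP and tdTomato libraries (-2.5 ± 0.63, adjusted p = 0.00573, edgeR) was lost without the libraries numbered 1 (adjusted p = 0.0525).

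Of the 4 intracellular FGF homologous factors, which bind voltage-gated sodium channels and are not secreted, Fgf14 was higher in eGFP/tdTomato than in tdTomato libraries (49.0 ± 14.4 and 11.8 ± 7.72 CPM, log2 fold change 2.05 ± 0.36, adjusted p = 0.000383, edgeR) and in eGFP libraries (45.4 ± 12 CPM, 1.94 ± 0.36, adjusted p = 0.000540, edgeR). Fgf12 was 2.32-fold lower in eGFP than in tdTomato libraries (9.87 ± 2.18 and 22.8 ± 5.30 CPM, adjusted p = 0.000561, edgeR). Its difference between eGFP/tdTomato and tdTomato libraries (-0.62 ± 0.22, adjusted p = 0.0493, edgeR) was lost in 13 alternatives, with adjusted p up to 0.279; single libraries whose removal ended it were numbers 1, 2 and 5 of the eGFP/tdTomato fraction (-0.66, -0.55 and -0.67), numbers 2 and 3 of the eGFP fraction (-0.62 in each case) and numbers 1, 2 and 3 of the tdTomato fraction (-0.61, -0.53 and -0.55). Fgf11 was lower in eGFP than in tdTomato libraries (-1.14 ± 0.37, adjusted p = 0.0245, edgeR), and this was lost in 6 of 25 alternatives: with a term for reads outside genes (-0.89, adjusted p = 0.157), without the libraries numbered 1 (-0.93, adjusted p = 0.129) or 2 (-0.99, adjusted p = 0.111), without eGFP library 2 (-0.95, adjusted p = 0.0658) and without tdTomato libraries 1 or 3 (-1.03 in each case).

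The list of 8 co-receptors and extracellular carriers also holds the kinase receptor gene Fgfr4. Of these genes, 4 were higher and 1 lower in eGFP/tdTomato than in tdTomato libraries, and 5 were higher and 1 lower in eGFP than in tdTomato libraries. The shares called higher, 50% and 62.5%, stand beside 16.8% and 20.4% of all genes tested. The share called lower, 12.5% in both, stands beside 12.4% and 14.9%. In edgeR none was called between eGFP/tdTomato and eGFP libraries (2 at an unadjusted p under 0.05), and DESeq2 and limma-voom each called 1, Flrt1 (0.87, adjusted p = 0.0226, and 0.95, adjusted p = 0.0474). The Klotho genes Kl and Klb, which encode co-receptors of endocrine FGFs, averaged at most 2.13 and 1.23 CPM in a fraction and passed no test in edgeR, DESeq2 or limma-voom. Fgfr4, the remaining kinase receptor, averaged 6.93 ± 2.16 CPM in eGFP/tdTomato libraries, 5.40 ± 2.18 CPM in eGFP libraries and 0.587 ± 0.188 CPM in tdTomato libraries. It was 11.7-fold higher in eGFP/tdTomato (adjusted p = 9.36e-06, edgeR) and 9.10-fold higher in eGFP than in tdTomato libraries (adjusted p = 2.32e-05, edgeR). Fgfbp3, which encodes an FGF-binding carrier, averaged 34.4, 37.5 and 8.94 CPM in eGFP/tdTomato, eGFP and tdTomato libraries. Of the FLRT genes, which encode transmembrane partners of FGF receptors, Flrt1 averaged 50.7, 26.9 and 12.8 CPM in that order, and its call between eGFP and tdTomato libraries (1.08 ± 0.27) was lost without the libraries numbered 2 (0.93, adjusted p = 0.0708) or 3 (0.69, adjusted p = 0.123). Flrt2 was 2.32-fold higher in eGFP than in tdTomato libraries (34.4 ± 6.99 and 14.9 ± 3.29 CPM, adjusted p = 0.000260, edgeR). Flrt3 was 2.69-fold lower in eGFP/tdTomato than in tdTomato libraries (14.7 ± 2.67 and 39.5 ± 10.3 CPM, adjusted p = 0.000247, edgeR).

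Among 22 genes of heparan sulfate proteoglycans and their enzymes, 9 were higher and 3 lower in eGFP/tdTomato than in tdTomato libraries, and 9 were higher and 2 lower in eGFP than in tdTomato libraries. The shares called higher, 40.9% in both, stand beside 16.8% and 20.4% of all genes tested, and those called lower, 13.6% and 9.09%, beside 12.4% and 14.9%. Sdc4, syndecan 4, had 979, 852, 810 and 761 CPM in eGFP/tdTomato libraries, 924, 861, 665 and 629 CPM in eGFP libraries, and 3.74, 3.49, 3.16 and 3.14 CPM in tdTomato libraries. Its log2 fold change of 7.97 ± 0.24 in eGFP/tdTomato against tdTomato libraries exceeded that of every member (adjusted p = 2.88e-11, edgeR). The glypican gene Gpc4 averaged 56.4, 45.8 and 1.28 CPM, and the syndecan gene Sdc2 231, 220 and 16.7 CPM, in eGFP/tdTomato, eGFP and tdTomato libraries. Sulf1, which encodes an enzyme that removes sulfate groups from heparan sulfate, was 7.66-fold higher in eGFP than in tdTomato libraries (adjusted p = 1.65e-06, edgeR). Sulf2 and Gpc1 of the same list ran the other way. Sulf2 averaged 149 ± 50.7, 201 ± 32.5 and 414 ± 89.8 CPM in eGFP/tdTomato, eGFP and tdTomato libraries, and Gpc1 12.5, 7.65 and 57.7 CPM. Both were called lower in each fraction with eGFP than in tdTomato libraries. The glypican genes Gpc5 and Gpc3 also separated the fractions with eGFP, in opposite directions. Gpc5 had 167, 129, 150 and 113 CPM in eGFP/tdTomato libraries and 36.2, 59.2, 54.1 and 54.6 CPM in eGFP libraries (log2 fold change 1.45 ± 0.20, adjusted p = 0.000709, edgeR). Gpc3 had 17.4, 20.7, 18.3 and 15.3 CPM in eGFP/tdTomato libraries and 87.9, 164, 44.9 and 116 CPM in eGFP libraries (-2.53 ± 0.30, adjusted p = 0.000212, edgeR), beside the higher mural and fibroblast marker sum of the eGFP libraries, whose part was not tested.

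**Figure D5:**
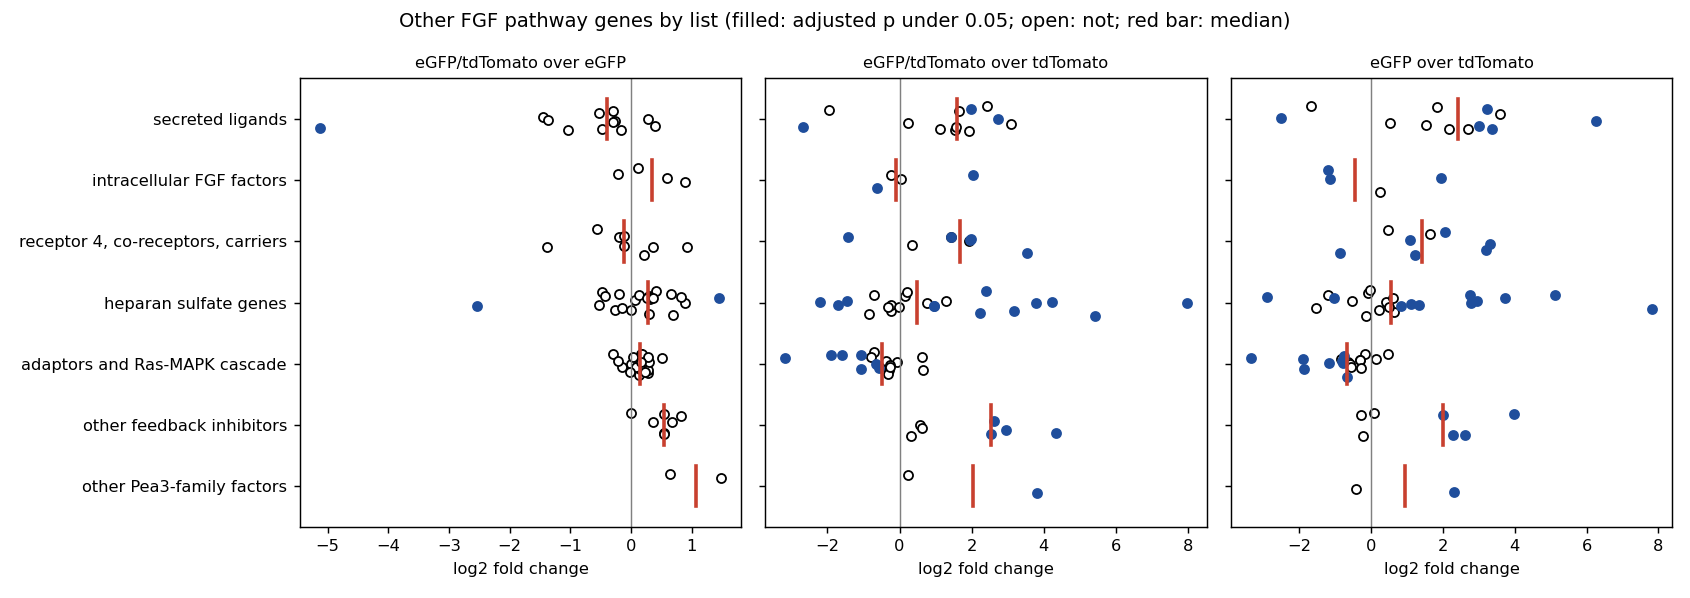
Log2 fold change of the other FGF pathway genes that passed the filter, by list, for eGFP/tdTomato over eGFP, eGFP/tdTomato over tdTomato and eGFP over tdTomato libraries. Filled points have an adjusted p under 0.05 in edgeR and red bars are list medians. In both comparisons with tdTomato libraries, the filled points of the cascade genes lie below 0 and those of the feedback inhibitors above 0.

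The genes with the pattern most like each member were sought among 11333 protein-coding genes with a mean of at least 5 CPM. Likeness was the root mean square difference of log2(CPM + 0.5), each gene centred on its mean over the 12 libraries, so a small value means a like pattern. Nearest to Fgfr3 was Lfng (0.29), a modulator of Notch receptors, with 44.8, 20.2 and 0.272 CPM in eGFP/tdTomato, eGFP and tdTomato libraries, then Pygb (0.34) and Pbxip1 (0.35). Nearest to Fgfr1 were Dzip1l (0.13), Bambi (0.18) and Shroom3 (0.19), and nearest to Fgfr2 were Psd3 (0.13), Sars2 (0.14) and R3hcc1l (0.14). Fgfrl1 was closest to Fam171a1 (0.13), Rrbp1 (0.13) and the Hedgehog receptor gene Ptch1 (0.15), which averaged 218, 119 and 85.1 CPM in the 3 fractions. For Fgf1 the list was Dio2 (0.21), which encodes the enzyme that activates thyroid hormone, Gabrg1 (0.29) and Selenop (0.31), and for Fgf2 it was Parp3 (0.23), Gstt3 (0.28) and Adgre5 (0.29). Spry2 was closest to Lrrc8a (0.21), Lifr (0.25) and Chsy1 (0.31), Spry4 to Brinp3 (0.28), Arpp21 (0.29) and Pbk (0.31), Spry1 to Kdm3a (0.15), Dpagt1 (0.15) and Ogt (0.16), and Etv5 to Kcnip3 (0.26), Spon1 (0.31) and Plpp3 (0.33). No member was among the nearest genes of another.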

How the data were processed

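The 12 libraries (3 sorted fractions, 4 libraries each, BGISEQ-500) were deposited by the authors as raw counts per Ensembl gene, 53465 genes and 5 lines that name no gene, which were kept out of library sizes and tests. Per the submitters' processing notes, reads were aligned with STAR to GRCm38 (mm10) and counted with HTSeq; versions, strand mode and annotation release are not given in the sources used here. Symbols, exon lengths and positions came from GENCODE M21 (53360 genes matched), and promoter sequences from RefSeq (GRCm38.p6).

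Counts were tested with edgeR 4.0.16 in R 4.3.3 (robust quasi-likelihood F-tests after a filterByExpr filter and TMM scaling); a single model held all 12 libraries, with fraction as its factor. Benjamini-Hochberg adjustment ran over the 29361 genes that passed the filter. Standard errors were obtained by dividing a log2 fold change by the square root of F, and levels are CPM scaled by TMM factors. The fit was tested on simulated data. Alternatives were median-of-ratios factors, no filter, a floor of 1 CPM in 4 libraries, DESeq2 1.42.0, limma-voom 3.58.1, a replicate block, a covariate for reads outside genes, protein-coding genes only, the 2 groups only, and leaving out each library or number.

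All 10 members are named. From each pathway list and comparison, at most 4 genes are named, those called with the largest change whose higher group averaged 5 CPM or more. All genes of the list of 2 are named too, and for each member the 3 most alike genes. Sulf2 and Gpc1 are named beside Sulf1 as genes of that list called lower. Foxj1, Pifo, Dcn, Pdgfra and Cspg4, among the first 2 genes of their marker lists, and list sums stand for the markers. Sox10 and Gpr17 are named as progenitor markers called between the fractions with eGFP. Col1a2 and Olig1 are named as the largest part of their list's sum in eGFP/tdTomato libraries. Members, lists and rules were chosen with earlier results of these data known.

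Libraries of the same number, which the labels call a set, were not treated as matched, since the labels do not say what a set shares.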

Additional observations from a re-analysis of the deposited data

Results flagged for a closer look

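Of 30 sets of 4 libraries (10 members in 3 fractions), 2 had a library far from its 3 neighbours, with a gap beyond Dixon's critical value for 4 samples; chance gives about 1 in 20 such sets. Fgfr1 in the tdTomato fraction was highest in library 1, at 23.3 CPM against 16.8 to 17.7 CPM in the others, a gap of 0.859 of the range. Fgfr3 in the tdTomato fraction was highest in library 3, at 8.89 CPM against 6.01 to 6.47 CPM in the others, a gap of 0.842 of the range. Both lie far below every library of the fractions with eGFP.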

How the results depend on the processing

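In eGFP/tdTomato against eGFP libraries, 730 genes were called, with 1496 under DESeq2, 1176 with the term for reads outside genes, and 261 to 1008 when libraries were left out (484, 471 and 450 without eGFP/tdTomato library 1, 3 or 5, and 451 without eGFP library 5). Of the members, 2 were called, 4 each under DESeq2, the floor of 1 CPM and the term for reads outside genes, and 1 to 4 when libraries were left out (4 without eGFP library 3, 1 without the libraries numbered 1). The counts of members called against tdTomato libraries stayed within 1.5 times of the values given. Signs that turned belonged to changes that passed no test. For Fgfr2 between eGFP/tdTomato and eGFP libraries they were -0.03 (median-of-ratios factors and DESeq2), -0.01 (no filter), -0.05 (floor of 1 CPM and protein-coding genes only) and -0.06 (2 groups only), and -0.11 to 0.10 over all alternatives. For Spry1 they were -0.01 against tdTomato libraries in eGFP/tdTomato libraries (protein-coding genes only), and in eGFP libraries -0.01 (median-of-ratios factors and DESeq2), -0.03 (no filter and floor of 1 CPM) and -0.09 (protein-coding genes only). With libraries left out, the lowest to highest values were -0.07 to 0.35 for Fgfr1 between eGFP/tdTomato and eGFP libraries; for Spry1, -0.03 to 0.34 there, -0.21 to 0.35 in eGFP/tdTomato and -0.23 to 0.23 in eGFP against tdTomato libraries; and -0.17 to 0.39 for Etv1 in eGFP/tdTomato against tdTomato libraries. The cause was not tested. The median over all genes ranged from 0.12 to 0.97 and from 0.10 to 1.07 in these comparisons with tdTomato libraries. Of 30 levels per length, 12 moved by more than 1 SD with the length of the longest transcript and none with median-of-ratios factors.

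With the library number as a replicate block, 1239 genes were called between eGFP/tdTomato and eGFP libraries and Etv5 passed there (1.51, adjusted p = 0.00808, edgeR). Among the members the block changed no other call. Of the other Pea3-family factors, Etv4 (1.65, adjusted p = 0.00387, edgeR) and Etv1 (0.67, adjusted p = 0.0396, edgeR) also passed there with the block. Of 12 same-number pairs, 8 had deviations correlated above 0.1 (range -0.24 to 0.66), with 0.53 to 0.66 for the 3 pairs numbered 3, and 4 libraries were most like their own number in both other fractions. These correlations differed between numbers and do not settle whether the libraries are matched. The labels do not say what a number shares, so the main fit held no block.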

Other observations

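Some members followed the library number in all 3 fractions. Spry2 was higher in the libraries numbered 1 and 2 than in those numbered 3 and 5 within each fraction: 768 and 627 against 466 and 429 CPM in eGFP/tdTomato libraries, 639 and 586 against 350 and 291 CPM in eGFP libraries, and 68.0 and 97.6 against 43.5 and 38.2 CPM in tdTomato libraries. Fgfr3 was highest in the library numbered 3 of each fraction, at 684 CPM in eGFP/tdTomato, 485 CPM in eGFP and 8.89 CPM in tdTomato libraries. The libraries numbered 3 also had the lowest share of reads outside genes of their fraction, 25.6% in the eGFP/tdTomato, 29.1% in the eGFP and 21.2% in the tdTomato fraction. With that share as a term, the log2 fold change of Fgfr3 was 0.61 in eGFP/tdTomato against eGFP libraries (adjusted p = 0.404, edgeR), 6.39 in eGFP/tdTomato against tdTomato libraries (adjusted p = 4.72e-09) and 5.78 in eGFP against tdTomato libraries (adjusted p = 1.78e-08). The labels do not say what a number shares.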
